A study of Homo sapiens with 4 samples.

Results

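FOXC1 binding was examined at 10 genes of the Notch pathway in J82 cells, an established human bladder cancer cell line. The genes were the receptors NOTCH1, NOTCH2, NOTCH3 and NOTCH4, the ligands JAG1, JAG2, DLL1 and DLL4, and the targets HES1 and HEY1, out of 20163 protein-coding genes in the annotation. A peak was assigned to a gene when its summit lay in the gene body or within 50 kb of it, which makes a window around each gene. By this rule the 10 windows held 13 of the 22405 peaks of replicate 1 and 32 of the 41789 peaks of replicate 2. Overlapping peaks of both replicates formed 9 shared regions here, of 13238 in all.

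The cells were grown in DMEM with fetal bovine serum, and no treatment, sorting or genetic change is named for them. Chromatin was precipitated with the anti-FOXC1 antibody D8A6 in 2 biological replicates, and 2 input libraries were made without antibody. Each replicate has 1 list of peaks called against input, and values of the inputs were not analysed here. FOXC1 is a forkhead transcription factor, and a ChIP-seq peak is a place where the precipitated fragments pile up above the input background. Its fold enrichment is the pileup at the summit over the local background, each with 1 added. Coordinates are on hg19.

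Notch receptors sit in the cell membrane and are activated by Jagged and Delta-like ligands on neighbouring cells. Cleavage then frees the intracellular part of the receptor, which moves to the nucleus, binds the DNA-binding protein RBPJ and switches on repressor genes of the HES and HEY families. In the urothelium and its cancers, the pathway has been described as restraining growth in some settings and promoting it in others. In endothelial cells, FOXC1 and its close relative FOXC2 are known as activators of DLL4.

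FOXC1 regions found in both replicates were present at 3 of the 10 genes. These were JAG1 with 5 regions, NOTCH2 with 2 and HES1 with 2. The other 7 genes had none, and of these only NOTCH1 had a replicate 1 peak, which had no partner in replicate 2. The strongest region lay inside NOTCH2, where replicate 1 gave a fold enrichment of 10.0 and replicate 2 one of 14.6 (mean 12.3 ± 3.25, SD, n = 2). By mean fold enrichment it ranked 1592 among all shared regions, which is the top 12.0%. The strongest regions of JAG1 and HES1 ranked 2743 and 7029.

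The reference sequence of 101 bases centred on the summit is given for a choice of the shared regions. These were the strongest region of NOTCH2, the strongest and the outermost JAG1 region beyond its 3′ end, and both HES1 regions. All sequences are on the plus strand of GRCh37, the assembly of hg19. Capitals mark matches on either strand to the forkhead consensus (NTAAANA with A or G at the first N and C or T at the second), to the AP-1 word (TGANTCA with C or G at N) and to the RBPJ word (GTGGGAA). None of the words searched was found in the NOTCH2 sequence. The choice holds all 3 of the 9 shared regions with a forkhead match, so it does not show how often one was found. The second strongest JAG1 region, chr20:10577392-10578022, is not shown and held none of the words.
NOTCH2, chr1:120529990-120530090: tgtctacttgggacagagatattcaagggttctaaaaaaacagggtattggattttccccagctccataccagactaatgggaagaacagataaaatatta
JAG1 and SLX4IP, chr20:10585377-10585477: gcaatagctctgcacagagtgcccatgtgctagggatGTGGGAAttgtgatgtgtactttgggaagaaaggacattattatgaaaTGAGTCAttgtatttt
JAG1 and SLX4IP, chr20:10572655-10572755: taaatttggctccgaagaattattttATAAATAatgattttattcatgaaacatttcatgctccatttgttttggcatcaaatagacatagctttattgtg
HES1 distal, chr3:193839824-193839924: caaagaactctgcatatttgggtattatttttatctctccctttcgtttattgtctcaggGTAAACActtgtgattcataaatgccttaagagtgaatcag
HES1 promoter, chr3:193852657-193852757: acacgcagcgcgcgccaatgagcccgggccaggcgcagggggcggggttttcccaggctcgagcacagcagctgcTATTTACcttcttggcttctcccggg

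The number of genes with binding was set beside that over all protein-coding genes, measured with the same windows. A replicate 1 summit was found at 4 of the 10 genes, where 62.7% of all protein-coding genes had one. In replicate 2, 9 of the 10 genes had a summit, against 80.1% of all genes. A shared region was found at 3 of 10 genes, against 46.6%, and a shared region with a −log10 q of at least 5 in both replicates at 2 of 10, against 29.3%. The counts thus lay below the share of all genes in replicate 1 and for shared regions, and above it in replicate 2, and with 10 genes no difference from protein-coding genes in general was tested. The windows of the Notch genes were 103 to 289 kb long, and the median over all protein-coding genes was 127 kb. The choice of 50 kb bore on these counts: within 10 kb of the gene body 3 shared regions were left, at 2 genes, and within 100 kb there were 16, at 6 genes.

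**Figure D1:**
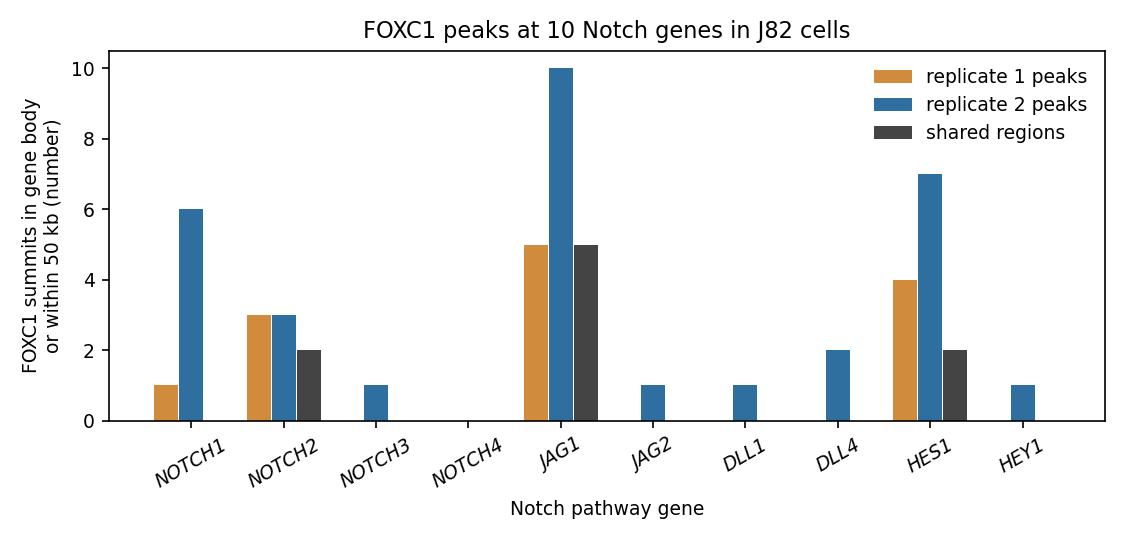
Number of FOXC1 summits in the gene body or within 50 kb of it, for each of the 10 Notch genes, with bars for replicate 1 peaks, replicate 2 peaks and regions shared by both. JAG1 and HES1 have the most, with 10 and 7 replicate 2 peaks, and NOTCH4 has none.

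The replicates were of similar depth. From the fold enrichments and −log10 p values, the ChIP library of replicate 2 was estimated to hold 0.960 times the reads of replicate 1. Over all listed peaks, the summits held a median of 18 reads in replicate 1 and 22 in replicate 2. Replicate 2 listed more peaks at the Notch genes as it did over the genome, and 9 of its 32 peaks there lay in shared regions, compared with 31.7% of all replicate 2 peaks. A peak missing from a list gives no read number for that replicate, so absence from the list of replicate 1 does not show absence of binding.

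Among the receptors, NOTCH2 was the one with shared regions in its body. Its gene record, chr1:120454176-120643366 on the minus strand, held 2 shared regions, both in introns. The strongest, chr1:120529739-120530381, lay 113 kb downstream of the start of the gene record and 367 bp from the start site of a shorter NOTCH2 transcript, so that it counted as a promoter region within the gene. There were 72 reads over its summit in replicate 1 (95% Poisson interval 56.3 to 90.7) and 111 in replicate 2 (91.3 to 134), and its −log10 q was 45.9 and 80.5. The summits of the replicates lay 8 bp apart. The second region, chr1:120496297-120496912, lay 16.4 kb from the nearest start site, and its summit held 23 and 44 reads, at fold enrichments of 3.29 and 7.95 (5.62 ± 3.29, mean ± SD, n = 2). Its −log10 q of 4.04 in replicate 1 fell short of 5. The read intervals here and elsewhere cover counting error only.

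The NOTCH2 window also held a peak without a partner in each replicate. In replicate 1 it lay 69 bp from the start site of ADAM30, the neighbouring gene, with a fold enrichment of 3.10 and 15 reads. In replicate 2 it lay in an exon near the 3′ end of NOTCH2, with a fold enrichment of 3.27 and 17 reads. Part of NOTCH2 has near-identical copies elsewhere on chromosome 1, the NOTCH2NL genes. Pieces of 75 bases of the reference were placed on the assembly without contigs of alternative haplotypes. Of those from the NOTCH2 window, 48.75% had a mapping quality of at least 30, compared with 80.1 to 95.5% for the other 9 genes. Both NOTCH2 regions lay where all pieces met this limit. Neither replicate listed a peak in a NOTCH2NL gene, but the records of these genes overlap at the same place on hg19. The lack of a listed peak there does not show a lack of binding. The part of these copies in the NOTCH2 count was not tested.

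NOTCH1 (chr9:139388885-139440500, minus strand) had 1 peak in replicate 1 and 6 in replicate 2, and no shared region. The replicate 1 peak lay in an intron of the neighbouring gene SEC16A, 46.7 kb from NOTCH1, with a fold enrichment of 2.71. It was 995 bp from a SEC16A start site. Of the replicate 2 peaks, 1 lay in an intron of NOTCH1 with a fold enrichment of 3.25 and 16 reads. Another 3 lay upstream of the gene at 18.7, 26.2 and 46.1 kb from its start. The other 2 lay in SEC16A, 1 of them 177 bp from a SEC16A start site. The fold enrichments of the 6 replicate 2 peaks ran from 2.49 to 3.25, all below the median of 3.63 of the replicate 2 list. The nearest shared region to NOTCH1, chr9:139529601-139530412, lay outside the window at 89.5 kb, with fold enrichments of 12.01 and 20.7 and a −log10 q of 44.8 and 117. It was nearest to the start site of EGFL7, which encodes a secreted protein known to bind Notch receptors.

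NOTCH3 (chr19:15269849-15311806, minus strand) had a single peak, in replicate 2, 9.56 kb upstream of its start, with a fold enrichment of 4.96, 25 reads and a −log10 q of 7.84. No peak of either replicate was listed at NOTCH4 (chr6:32162620-32191844, minus strand), and its nearest shared region lay 1533 kb away. The stretch around NOTCH4 without a listed peak was 5.41 Mb long in replicate 1 and 5.05 Mb in replicate 2, on a chromosome that had 8.06 and 16.2 peaks per Mb. The count of 0 was thus shared with the surroundings of NOTCH4. Replicate 2 listed 1 peak on a contig of an alternative haplotype of chromosome 6, so that such contigs were among the sequences to which its reads were mapped. The share of 80.1% of pieces placed at NOTCH4 was measured without such contigs. The part of these contigs in the count of 0 at NOTCH4 was not tested.

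The ligand JAG1 (chr20:10618332-10654647, minus strand) had the most sites of the ligands, with 5 peaks in replicate 1, 10 in replicate 2 and 5 shared regions. At least 5 shared regions were found at 2.59% of protein-coding genes, and at least 10 replicate 2 summits at 4.53%. Of the 5 regions at JAG1, 1 had a −log10 q of at least 5 in both replicates. Such a region was found at 29.3% of protein-coding genes. Within 10 kb of the JAG1 body no shared region was left. All 5 replicate 1 peaks had a replicate 2 partner. None of the shared regions lay in JAG1 itself. Of the 5, 4 lay beyond its 3′ end, 32.9 to 45.6 kb from the gene body, in introns of SLX4IP, a gene that lies next to JAG1 on the other strand and has a role in telomere maintenance. The nearest protein-coding start site to each of these 4 was one of SLX4IP.

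The strongest JAG1 region, chr20:10584791-10585925, was enriched 5.50-fold and 12.5-fold (9.01 ± 4.96, mean ± SD, n = 2), with 49 reads in replicate 1 (interval 36.3 to 64.8) and 82 in replicate 2 (65.2 to 102). It was also the widest of the 9 shared regions, at 1135 bp. Of the 9 regions, only this one and the strongest of NOTCH2 had a −log10 q of at least 5 in both replicates, at 18.8 and 55.4 here. Its 101 bases held the RBPJ word 10 bp from the summit and the AP-1 word 38 bp from it, and no forkhead match.

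The region at chr20:10577392-10578022 had fold enrichments of 3.08 and 8.72 and that at chr20:10572453-10572998 of 3.13 and 8.59. At these regions the replicates differed most, both in fold enrichment and in reads, with read ratios of replicate 2 to replicate 1 of 2.63 (interval 1.67 to 4.26) and 2.74 (1.59 to 4.90). The fourth region, chr20:10579431-10579935, lay 350 bp from a start site of SLX4IP and was weak in both replicates. Its fold enrichments were 2.47 and 3.74, and its −log10 q was 1.11 and 4.30. The fifth, chr20:10695594-10696105, lay on the other side, 41.2 kb upstream of the start of JAG1 in an intron of the long noncoding RNA LINC01752. Its fold enrichments were 2.47 and 5.89, and its −log10 q was 1.11 and 14.5. Its nearest protein-coding start site was that of JAG1.

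Replicate 2 alone listed 5 further peaks at JAG1, and 2 of them lay in JAG1 introns. One of these, chr20:10635132-10635536, with 23 reads and a −log10 q of 5.89, was enriched 4.36-fold. Its summit was 1998 bp from the start site of a shorter JAG1 transcript. Its 101 bases held a forkhead match 14 bp from the summit and the RBPJ word 6 bp from it. The other had a fold enrichment of 2.28 with 14 reads. A pair of peaks lay 32.1 and 35.0 kb upstream of JAG1, with fold enrichments of 5.33 and 4.31, both past a −log10 q of 5 and without a replicate 1 partner. The fifth lay in SLX4IP, 2.23 kb beyond the 3′ end of JAG1. Peaks were dense on the whole of chromosome 20, with 16.4 and 29.1 per Mb in the replicates, compared with 7.24 and 13.5 over all chromosomes. The part of this in the count at JAG1 was not tested.

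**Figure D2:**
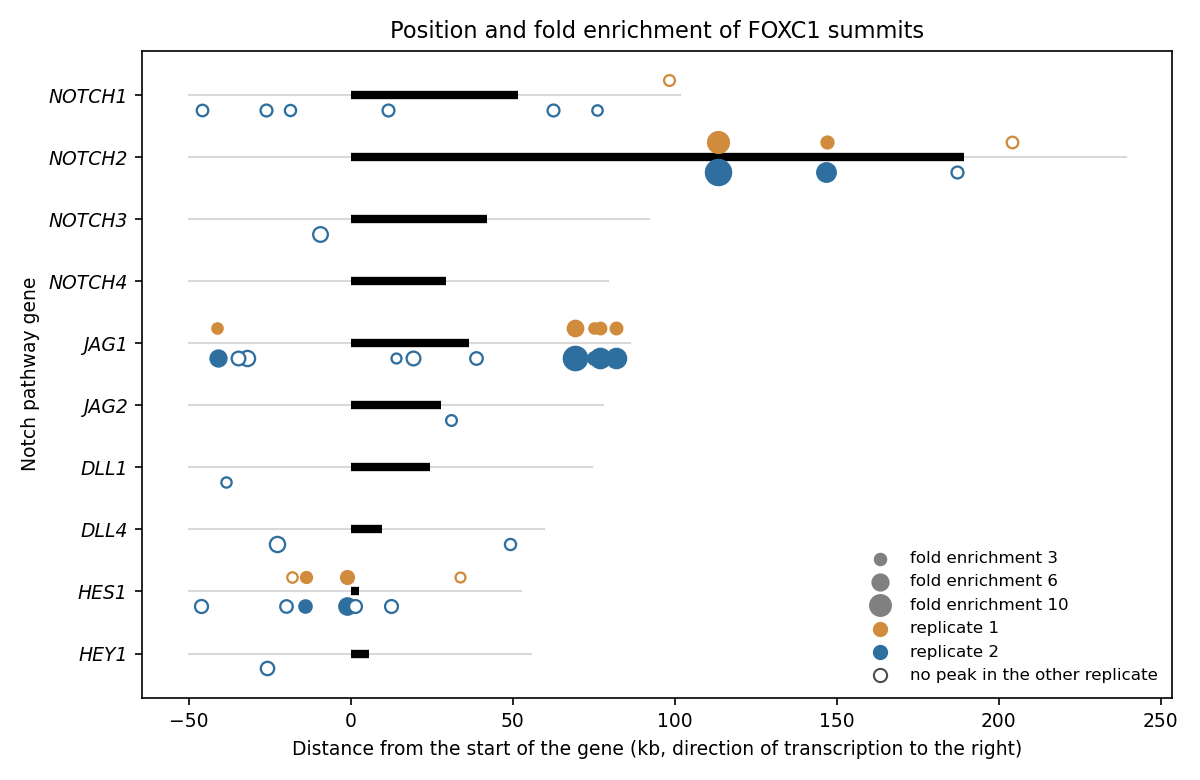
Positions of all 45 summits at the Notch genes as distance in kb from the start of the gene, with transcription running to the right. Black bars are gene bodies, grey lines the windows, point size is fold enrichment, and open points had no peak in the other replicate. The JAG1 sites sit on both sides of the gene, 5 of the 6 NOTCH2 summits lie inside the gene, and those of HES1 lie on both sides of its start.

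The other ligands had replicate 2 peaks only. DLL4 (chr15:41221538-41231271, plus strand), a ligand best known from blood vessels, had 2. The stronger lay 22.9 kb upstream of the gene with a fold enrichment of 5.35, 27 reads and a −log10 q of 9.42, and 393 bp from the start site of the noncoding gene ENSG00000251161. Its nearest protein-coding start site was that of VPS18. The other DLL4 peak lay 39.3 kb beyond the 3′ end with a fold enrichment of 2.88. The nearest shared region to DLL4 lay 62.7 kb from it, outside the window, with fold enrichments of 2.82 and 13.1. The single peak at JAG2 (chr14:105607319-105635161, minus strand) had a fold enrichment of 2.68 and lay 3.01 kb beyond its 3′ end. That at DLL1 (chr6:170591294-170615653, minus strand) lay in FAM120B with 2.43. Both were weak, since 86.0% and 94.0% of the replicate 2 peaks had at least their fold enrichment.

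The sequence under the JAG1 intronic peak of replicate 2 and under the stronger DLL4 peak is shown as an example. Capitals mark a forkhead match in both and the RBPJ word. Both were picked after their values had been seen. Of the 23 replicate 2 peaks outside shared regions, 5 held a forkhead match, these among them, against 33.3% of all such peaks. The peaks at DLL1 and 32.1 kb upstream of JAG1 were also among the 5 and are not shown. The NOTCH3 peak and that 35.0 kb upstream of JAG1, also not shown, held none of the words searched.
JAG1 intron, chr20:10635318-10635418: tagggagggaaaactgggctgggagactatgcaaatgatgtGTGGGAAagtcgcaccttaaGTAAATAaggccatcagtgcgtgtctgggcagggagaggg
DLL4 upstream, chr15:41198566-41198666: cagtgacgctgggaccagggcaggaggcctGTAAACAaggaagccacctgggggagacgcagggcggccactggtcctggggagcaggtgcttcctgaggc

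Among the targets, HES1 (chr3:193853937-193856521, plus strand), a repressor of differentiation genes that is switched on directly by Notch, had 4 peaks in replicate 1, 7 in replicate 2 and 2 shared regions. The stronger region, chr3:193852274-193853041, lay 1.23 kb upstream of the HES1 start and was the only shared region in the promoter of a Notch gene as defined by its first start site. Replicate 1 had 21 reads over its summit (interval 13.0 to 32.1) and a fold enrichment of 3.83, and replicate 2 had 34 reads (23.5 to 47.5) and 6.22, which gives 5.02 ± 1.69 (mean ± SD, n = 2). The −log10 q was 4.90 and 13.5, so that replicate 1 ended just below 5. The summits lay 3 bp apart, and 301 bp from the start site of the noncoding gene ENSG00000289385. A forkhead match lay 28 bp from the summit.

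The second HES1 region, chr3:193839697-193840001, lay 14.1 kb upstream between genes. Its fold enrichment differed least between the replicates among the 9 regions, at 2.78-fold and 3.51-fold (3.14 ± 0.519, mean ± SD, n = 2). The summit held 18 and 29 reads. A forkhead match of the form GTAAACA lay 13 bp from its summit. Replicate 2 had 2 further peaks inside the short HES1 gene, at 323 bp and 1158 bp from its start, with fold enrichments of 2.77 and 3.82. The other unpaired peaks at HES1, 3 in replicate 2 and 2 in replicate 1, lay between genes with fold enrichments of 2.25 to 3.91. At HEY1 on the minus strand of chromosome 8, which encodes a repressor related to HES1, a replicate 2 peak lay 25.96 kb upstream with a fold enrichment of 4.12, 33 reads and a −log10 q of 7.88. The nearest shared region lay 61.97 kb from HEY1.

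**Figure D3:**
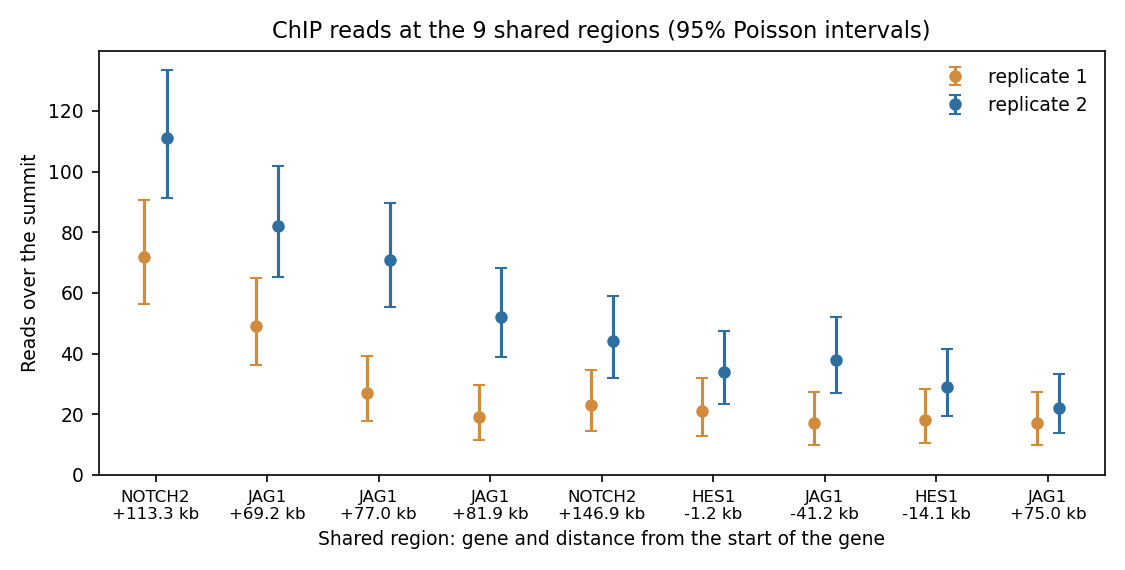
Reads over the summit in each replicate at the 9 shared regions, ordered by mean fold enrichment, with 95% Poisson intervals that cover counting error only. Replicate 2 lies above replicate 1 in all 9, from 22 against 17 reads in the weakest JAG1 region to 111 against 72 in NOTCH2.

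The replicates were then set against each other. At the Notch genes, 9 of 9 shared regions had the higher fold enrichment in replicate 2, as did 91.9% of all shared regions. The log2 ratio of replicate 2 to replicate 1 had a median of 1.19 at the Notch genes, with an SD of 0.44 and its lowest value, 0.34, at the distal HES1 region, and a median of 0.75 over all shared regions, with an SD of 0.52. Both medians are differences between the replicates and not between conditions. In 6 of the 9 regions, the interval of the read ratio lay wholly above 0.960, the ratio of the library depths, as it did in 63.8% of all shared regions with solved reads. For the other 3, which were the weakest JAG1 region and both HES1 regions, a difference beyond depth was not detectable with these read numbers. When regions within 100 kb were counted, the median log2 ratio was 0.74.

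**Figure D4:**
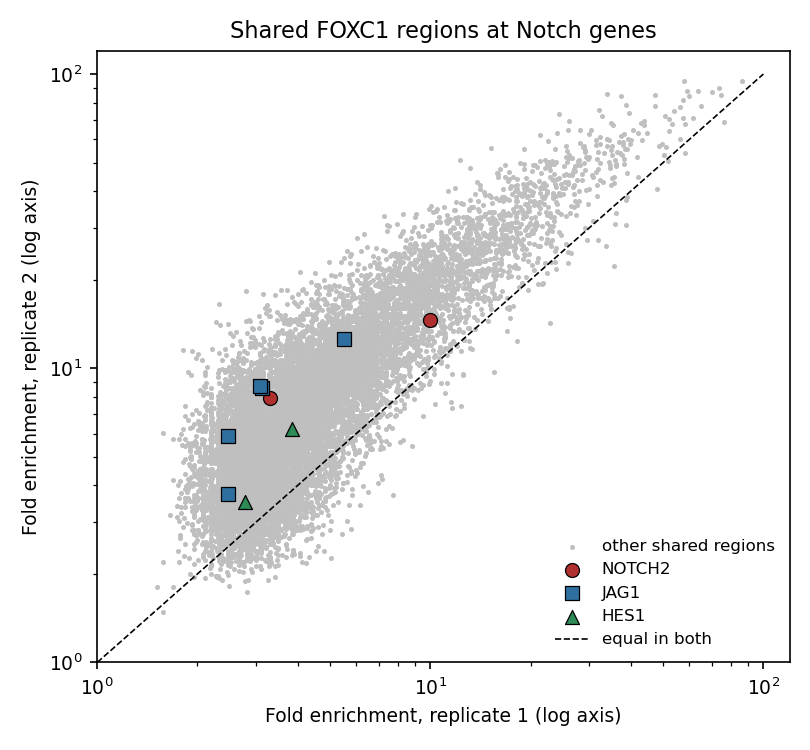
Fold enrichment in replicate 1 against replicate 2, both on log axes, for all shared regions (grey) and the 9 at NOTCH2, JAG1 and HES1, with a dashed line at equal values. All 9 lie above the line and within the grey cloud, and 2 of the JAG1 squares nearly coincide.

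The strength of the Notch regions was set beside that of all shared regions. Their median of the mean fold enrichment was 5.62, against 5.23 over all shared regions, and 5 of the 9 lay above the latter. In replicate 1 alone the median was 3.13, against 3.79, and in replicate 2 it was 7.95, against 6.71. A −log10 q of at least 5 in both replicates was met by 2 of 9 (22.2%, Wilson interval 6.32 to 54.7%). Over all shared regions it was 50.8%, a share that the interval includes. Wilson intervals here and below take the 9 regions as independent, although all lie at 3 genes and 5 of them at JAG1. They may thus be too narrow. The 23 replicate 2 peaks outside shared regions had a median fold enrichment of 3.27 and 12 to 37 reads over their summits, against a median of 3.18 for all such peaks, and 6 of them, in 4 genes, had a −log10 q of at least 5. A restriction to peaks past that limit left 2 peaks in replicate 1 and 14 in replicate 2.

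**Figure D5:**
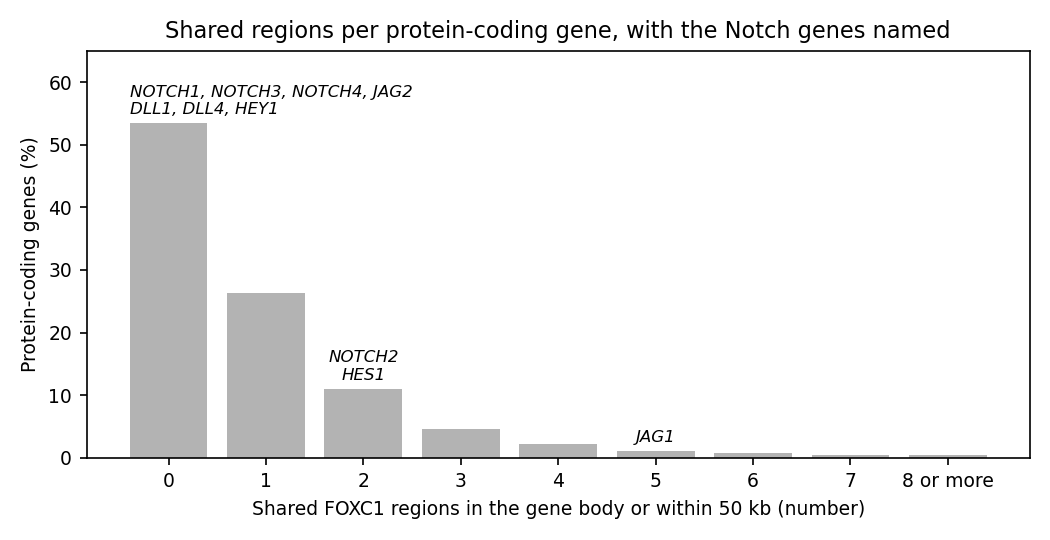
Percent of all protein-coding genes with a given number of shared FOXC1 regions in the gene body or within 50 kb, with the 10 Notch genes named above the bar they belong to. The 7 Notch genes without a shared region fall in the most common class, and JAG1 with 5 falls in a class that holds 1.05% of genes. Of these 5 regions, 1 had a −log10 q of at least 5 in both replicates.

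By genome position, 4 of the 9 regions lay at a promoter (44.4%, Wilson interval 18.9 to 73.3%), compared with 20% of all shared regions. A promoter was at most 2 kb from an annotated start site. The 20% lay inside the interval, which takes neighbouring regions as independent. The 4 regions were the strongest NOTCH2 region, a pair in SLX4IP and the promoter region of HES1. Introns held 7 of the 9 summits and 2 lay between genes. In 5 of 9 the nearest protein-coding start site was that of the Notch gene, and in the other 4 it was that of SLX4IP. Assignment by a 50 kb window does not tell which gene a site acts on.

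Of the 9 regions, 3 held the forkhead consensus at most 50 bp from the summit (33.3%, Wilson interval 12.1 to 64.6%), against 48.7% of all shared regions, and in 1 of 9 control windows 500 bp downstream, against 10.8%. The matches were those at both HES1 regions and at the outermost JAG1 region in SLX4IP, 13 to 28 bp from the summits, as marked in the sequences. Neither NOTCH2 region held one around the midpoint of the summits, but the replicate 2 summit of the second region, 81 bp from that of replicate 1, had a match within 50 bp. The match at the distal HES1 region lay within 50 bp of the replicate 1 summit and only in part within 50 bp of the replicate 2 summit, 72 bp away. The AP-1 word was found in 3 of 9, all at JAG1, against 16.6% of all shared regions. At these 3 it stood without a forkhead match. At the weakest JAG1 region it lay within 50 bp of the replicate 2 summit but not of the replicate 1 summit, 93 bp away. The RBPJ word was found in 1 of 9, at JAG1, against 1.59% of all shared regions and 1.88% of their control windows. Of the 23 replicate 2 peaks outside shared regions, 5 held the forkhead consensus, against 33.3% of all such peaks. A match describes the letters in the window and does not show a bound site.

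The wider pathway was described with a list of 55 other Notch genes, which covers ligands, modifiers, proteases, nuclear partners and targets. A shared region was found at 26 of the 55 (47.3%), close to the 46.6% of all protein-coding genes, and a shared region past a −log10 q of 5 in both replicates at 19 (34.5%), against 29.3%. Replicate 1 had a summit at 38 (69.1%, against 62.7%) and replicate 2 at 50 (90.9%, against 80.1%). The most shared regions were found at ITCH, a ubiquitin ligase that targets Notch, with 6, and at MAML3 and MAML2, coactivators that join the complex of RBPJ and the Notch intracellular domain, with 5 each. The strongest regions in the MAML3 and MAML2 windows lay in introns of these genes, with fold enrichments of 13.4 and 19.8 at MAML3 and 9.88 and 18.7 at MAML2. Both genes are long, with windows of 537 and 467 kb. ITCH had a window of 249 kb and lies, like JAG1, on chromosome 20, where peaks were dense. The part of this in its count was not tested.

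The strongest region at ITCH was enriched 19.8-fold and 40.4-fold (30.1 ± 14.6, mean ± SD, n = 2), with DYNLRB1 as the nearest protein-coding start site. The next genes, with 3 each, were the coactivator MAML1, the corepressor SPEN and MFNG, a sugar transferase that modifies Notch receptors. Their strongest regions had mean fold enrichments of 13.4, 13.2 and 12.5. That of MAML1 was nearest to the start site of SQSTM1 and that of MFNG to ELFN2. The SPEN region lay in an intron and was nearest to SPEN. RBPJ itself and HEY2, another direct Notch target, were looked up after the values had been seen. RBPJ had 3 shared regions, none with a −log10 q of at least 5 in both replicates. The strongest lay in an intron and was nearest to RBPJ. Its fold enrichments were 2.31 and 9.60, and its −log10 q was 1.09 in replicate 1. HEY2 had 1 region, with fold enrichments of 2.50 and 4.03 and a −log10 q of 0.65 in replicate 1. It lay 46.8 kb from the HEY2 start and was nearest to the start site of NCOA7.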

How the data were processed

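FOXC1 ChIP-seq was carried out by the authors in J82 cells with 2 biological replicates and 2 input libraries, as single-end reads of 75 bp. Per the methods of the study, bwa aligned the reads to hg19 and MACS2 2.2.7.1 called peaks with the matching input as control. The study also derived reproducible peaks with the IDR tool, and the shared regions here are not that set. The deposited lists hold the peaks of each replicate alone. The filter behind the lists is not given in the sources used here. The deposited values were the fold enrichment (a ratio), the −log10 p and −log10 q of the summit, the summit offset in bp, and a score that the authors made as 10 times the −log10 p. Samples were grouped by their titles.

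Peaks on chromosomes 1 to 22, X and Y were kept, which left out 42 entries of replicate 1 and 43 of replicate 2. Gene positions came from GENCODE version 44 on GRCh37, and chromosome names and coordinates are those of hg19. Peaks overlapping by at least 1 bp were merged into shared regions, with the summit midway between the strongest peaks. Promoters were within 2 kb of any annotated start site. Whole reads over a summit were solved from fold enrichment and −log10 p (residual under 0.001, solved for 99.8% and 99.5% of peaks and for all 45 at the Notch genes), which was first tested on simulated data. Library depth assumes the 2.7 Gb genome size of MACS2 and the smallest peak width, 260 and 270 bp, as fragment length. Motifs were searched within 50 bp of the summit. Pieces of 75 bases at steps of 25 were placed with minimap2 2.31 on GRCh37 without contigs of alternative haplotypes. Wilson and exact Poisson intervals at 95% were used, with the exact binomial interval for read ratios. No test was made, since 1 list per replicate holds no groups to compare.

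Regions named in full were all shared regions in a window, and other pathway genes were named by their number of shared regions. The members and gene lists were chosen with earlier results of these data known. Alternatives were windows of 10 and 100 kb, any overlap with the window, a −log10 q of at least 5, overlap of 50% of the shorter peak, each replicate alone, motif windows of 25 and 100 bp, GTAAACA alone, and promoter distances of 1 and 5 kb. Farthest inside the 50 kb rule was a NOTCH1 peak at 46.7 kb (fold enrichment 2.71), and nearest outside it a NOTCH2 peak at 52.4 kb (3.25). A further measure of the surroundings of NOTCH4 is not reported here.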

Additional observations from a re-analysis of the deposited data

How the results depend on the processing

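No paired analysis was possible because values of the input libraries were not analysed here and no test compared groups. Of 49 recomputed values, 32 stayed close to those of the report and 17 moved. Close meant within 1.5 times a count or within the Wilson interval of a share. For the median fold enrichment it meant within 3.41, the SD of the medians of the 2 replicates. For the median log2 ratio it meant within 0.44, the SD over the regions. These limits are wide. A median fold enrichment of 3.08 with replicate 1 alone counted as close to 5.62. With 10 kb around the gene body, replicate 1 had 3 peaks, replicate 2 had 13 and 3 regions were shared, with a median log2 ratio of 0.70. With 100 kb these were 24, 56 and 16, at 6 genes, with a median log2 ratio of 0.74. With a −log10 q of at least 5, there were 2 peaks, 14 peaks and 2 shared regions, with a median fold enrichment of 10.7 and a forkhead match in 0%. With 1 replicate left out, the remaining list held 13 to 32 peaks at 4 to 9 genes. GTAAACA alone was found in 11.1% of the regions. Counting any overlap of a peak with the window, or asking for an overlap of 50% of the shorter peak, changed none of the counts. In replicate 1, the read intervals of 7 of the 9 regions, with 17 to 27 reads over the summit, all overlapped one another.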
